A study of Mus musculus with 4 samples.

Results

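The genes described are the members of the Trim and Rnf families of ubiquitin ligases whose transcripts carried called m6A sites in macrophages. Members were taken by symbol, as every gene name in either deposited site table that starts with Trim or Rnf and goes on with a digit, leaving out Trim21, Trim25 and Rnf213. This gave 79 genes of 8800 with a called site, 27 of them Trim genes and 52 Rnf genes. The cells were bone marrow-derived macrophages (BMDM) of 2 wild-type mice, all exposed for 3 h to lipopolysaccharide (LPS), a bacterial outer membrane component that activates macrophages. No resting or mutant cells were analysed here. Each mouse gave 1 library after immunoprecipitation with an anti-m6A antibody (IP) and 1 input library. The term NTC in the names of the site tables is not explained in the labels, and it applies to both mice.

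A ubiquitin ligase of the RING type brings a ubiquitin-loaded E2 enzyme to its substrate, and the chain that is built can mark the substrate for the proteasome or serve as a signalling scaffold. Trim proteins join a RING to B-box and coiled-coil domains, and many act in antiviral and Toll-like receptor signalling. Rnf is a name given to proteins with a RING finger whatever else they hold, so Rnf proteins range from histone ligases to ligases of the endoplasmic reticulum. N6-methyladenosine (m6A) is a methyl mark on adenosines inside messenger RNA, which reader proteins bind and which is known to affect the stability and translation of the transcript. Anti-m6A antibodies also bind m6Am, a related mark of the adenosine next to the cap.

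Each row of a site table is 1 base on 1 strand, in the coordinates of mm10, with a score and a fold, both the authors' own values for that site. The fold compares, within a mouse, the read starts at that base in the IP with those in the input. A site was called enriched at a fold of at least 8, a log2 fold of 3. Read numbers were not given, so depth is unknown and a single site has no error of its own. Both mice's values are printed in its place, mouse 1 first. Shares of sites carry exact 95% intervals (Clopper-Pearson), which allow for counting error alone. Sites of 1 transcript, and genes of 1 library, are not independent of each other. All 8 macrophage markers looked up (Adgre1, Cd68, Csf1r, Fcgr1, Itgam, Lyz2, Mertk and Spi1) had a called site, as did 2 of 12 markers of other cells, the neutrophil genes S100a8 and S100a9. A transcript without a called site can still be expressed, and in bulk RNA fewer cells with a transcript and less of it per cell cannot be told apart.

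Sequence could be read for 23 called sites of 18 member genes, those that lay in a RefSeq window (GRCm38.p6) of 250 bases before to 50 bases after a gene start. Their nearness to a gene start was thus set by the windows and is no result. Sites of Rnf141 and Rnf149 and another site of Trim30c, not printed here, lay before the RefSeq start. Only some of the 23 are printed, and most of those printed have C before the called base. G stood there at sites of Rnf126 and Trim26 and at another site of Rnf130, which are not printed. The printed windows therefore do not stand for the shares of letters, which are counted below. Each sequence below is on the strand of the gene and runs 5' to 3'. It holds 10 bases on each side of the site and has the called base in capitals.
Rnf128 (chrX:139610610-139610630, + strand, called base at the RefSeq start): aggccgcggcAgtcgcgagcg
Trim23 (chr13:104178829-104178849, + strand, called base at the RefSeq start): ccctcctctcAgtaaaaggct
Rnf103 (chr6:71493900-71493920, + strand, 33 bases after the start): cagcgggtccAgtgctctggg
Rnf6 (chr5:146221427-146221447, - strand, 20 bases after the start): cgccgtttccAgacgcaccgg
Rnf34 (chr5:122850197-122850217, + strand, 19 bases after the start): tcgccgccttAgaaggaagga
Rnf130 (chr11:50025336-50025356, + strand, 15 bases after the start): gcctctcagcAccggccccgg
Trim30a (chr7:104465179-104465199, - strand, 4 bases after the start): cttaactttcAtttctctact
Trim30b (chr7:104369853-104369873, - strand, 18 bases after the start of the RefSeq gene Gm38525): ctgaactttcAtttctctcct
Trim30c (chr7:104400765-104400785, - strand, 3 bases after the start): attctgggtcAtttggttggt

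The called base was A in all 23 windows, and in all 3725 sites of any gene that were called in both mice and could be read in this way. Among the 19 such sites of member genes, 10 had C before the called A and 10 had G after it. The same shares over the 3725 sites were 64.4% for CA and 46.5% for AG. AC, the 2 letters at the core of the motif at which m6A is mostly placed inside mRNA, was found at 1 of the 19 sites, the Rnf130 site shown above, and at 15.9% of the 3725. These letters were read on the strand of the gene only, at the called base. The windows cover the starts of genes, so they say nothing of the sequence at coding or 3' UTR sites.

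The windows show sites of unequal strength. The Rnf128 site at the start base had the highest mean fold of the members' 5' UTR sites enriched in both mice, with folds of 80.7 and 35.4. Rnf128 encodes GRAIL, a membrane ligase known from T cell anergy, and its second site, in the 3' UTR, had folds of 60.2 and 24.1. The Rnf103 site had folds of 33.1 and 25.0, and the Rnf6 site 13.0 and 33.7. At the start base of Trim23 a site was called in mouse 2 alone and was not enriched (fold 6.74).

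Trim and Rnf transcripts carried 422 called sites in mouse 1 and 425 in mouse 2. Of these, 331 were enriched in mouse 1 (78.4%, 74.2% to 82.3%), against 81.7% of all called sites. In mouse 2, 337 were enriched (79.3%, 75.1% to 83.0%), against 79.1%. The 2 tables shared 341 member sites on the same base and strand, and 251 of these were enriched in both mice (73.6%, 68.6% to 78.2%), against 76.9% of all shared sites. Of the other shared sites, 27 passed the limit in mouse 1 alone, 31 passed it in mouse 2 alone, and 32 did not pass in either. Over all 38082 shared sites these counts were 3023, 2730 and 3041. The shares of the members thus lay close to those of all sites, and no test of the difference was run.

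At the level of genes, 73 members had called sites in both mice, and 66 of them carried at least 1 site enriched in both (90.4%), against 86.9% of all genes called in both. All 23 Trim genes called in both mice did, and 43 of 50 Rnf genes. Rnf24 and Rnf31 join them, and none is lost, when the limit is set before a constant carried by the folds of each table. For that setting the share over all genes was not recomputed. At a fold of at least 16 in both mice, 47 of the 73 members carried a site (64.4%), against 60.2% of all genes. These were 16 Trim and 31 Rnf genes. The median number of sites enriched in both was 3 per Trim gene and 2 per Rnf gene, and 2 over all genes. The strongest site called in both mice had a median fold (geometric mean of the mice) of 26.6 over the Trim genes, 21.5 over the Rnf genes and 25.0 over all genes. Neither family therefore stood far from the genes at large by these medians, and the difference between the families was not tested.

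**Figure D1:**
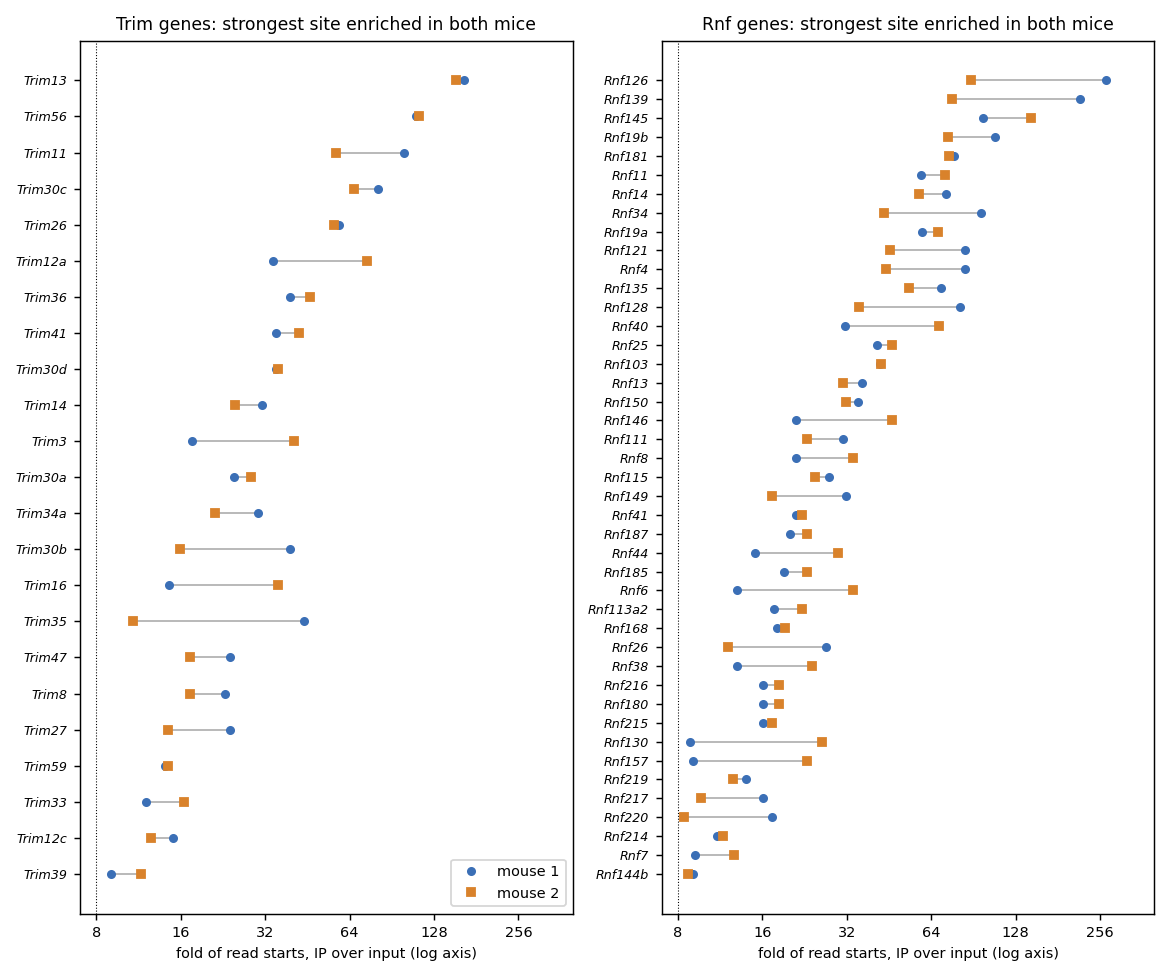
Fold of read starts, IP over input (log axis), of the strongest site enriched in both mice for each of the 23 Trim and 43 Rnf genes that had one. Circles are mouse 1, squares mouse 2, grey lines join the mice, and the dotted line is the limit of 8. Trim13 and Rnf126 stand at the top of their families, and the mice lie close together for Trim13 and Trim56 but far apart for Rnf126 and Trim35.

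Of the 17 antiviral and interferon-linked Trim genes on the list, 10 had called sites, all of them in both mice. Against 86.9% of all genes called in both, all 10 carried a site enriched in both mice. Trim56, a ligase known to promote antiviral signalling through STING, had more of them than any other member. It carried 20 sites enriched in both mice, of which 14 were coding and 6 lay in the 3' UTR. The strongest, in coding sequence on chromosome 5 at 137114533, had folds of 110 and 114 and scores of 117 and 131. A second at 137113576 had folds of 95.3 and 96.3. The mice were close at both bases. All 14 called 3' UTR sites of Trim56 lay beyond the end of the gene in RefSeq, in the stretch that the authors' annotation assigns to its 3' UTR. Trim26, a regulator of interferon induction, followed with 16 sites, 9 of them coding and 7 in the 3' UTR, and its strongest site on chromosome 17 at 36859186 had folds of 58.5 and 56.2. Trim14, which lacks a RING and acts at the mitochondrial antiviral adaptor MAVS, had 3 sites and a strongest site of 31.1 and 25.0.

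The Trim12, Trim30 and Trim34 genes are neighbouring paralogues on chromosome 7, and their called sites spanned 104247699 to 104500892. The 7 genes with called sites had 42 sites called in both mice, of which 20 were enriched in both (47.6%, 32.0% to 63.6%). Over the other 72 members the count was 231 of 299 (77.3%, 72.1% to 81.9%), a split made after the values were seen and not tested. Trim30c was highest, with 6 such sites and a strongest coding site at 104390459 with folds of 80.7 and 66.1. Trim30a, whose product restrains Toll-like receptor signalling to NF-kB, had 15 and 13 called sites in the 2 mice but only 3 enriched in both, the strongest at 24.7 and 28.6. Its site 4 bases after the start had high scores (74.1 and 79.1) with folds of 5.66 and 5.72, under the limit in both mice.

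The printed Trim30a and Trim30b windows differed at 2 of 21 bases, while Trim30a and Trim30c differed at 11. The matching Trim30b site had folds of 6.64 and 11.9, and that of Trim30c 8.56 and 8.13. How reads that match several copies were treated is not given in the sources used here, so values of single genes of this group are uncertain. Trim12a had 3 sites enriched in both mice, all in the 3' UTR, and its strongest had folds of 34.1 and 74.1. Trim30b (39.1 and 15.9), Trim30d (35.1 and 35.6), Trim34a (30.1 and 21.2) and Trim12c (15.0 and 12.5) completed the group.

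Of the other Trim genes linked to inflammatory signalling, 8 of 11 were called in both mice and all 8 carried a site enriched in both. Over all genes called in both mice the share was 86.9%. Trim13, a ligase anchored in the endoplasmic reticulum, had the strongest shared site of all members, in coding sequence on chromosome 14 at 61605374, with folds of 163 and 153 and scores of 119 and 113. All 12 of its sites enriched in both mice lay in coding sequence. Trim41 carried 4 such sites, the strongest at 35.1 and 42.4. Trim8, a ligase that activates NF-kB through TAK1, differed in layout, with 5 of its 6 sites in the 5' UTR, the strongest at 23.1 and 17.3. Trim23, which carries an ARF-type GTPase domain, had only the start site given above.

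Few other Trim genes reached such values. Trim11 carried 6 sites enriched in both mice, the strongest in coding sequence on chromosome 11 at 58990553 with folds of 100 and 57.3. Trim3, a protein with NHL repeats, had 4, the strongest in the 3' UTR with 17.5 and 40.4. Of the TIF1 family of transcriptional corepressors, Trim33 had 1 such site in the 3' UTR (12.03 and 16.4), Trim24 had called sites in mouse 2 only, and no site was called for Trim28 or Trim66. The remaining Trim genes without a shared site were called in 1 mouse with 1 site each. These were Trim32, an NHL-repeat ligase known from muscle, in mouse 2 (fold 10.6) and Trim44, which lacks a RING, in mouse 1 (fold 10.03).

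**Figure D2:**
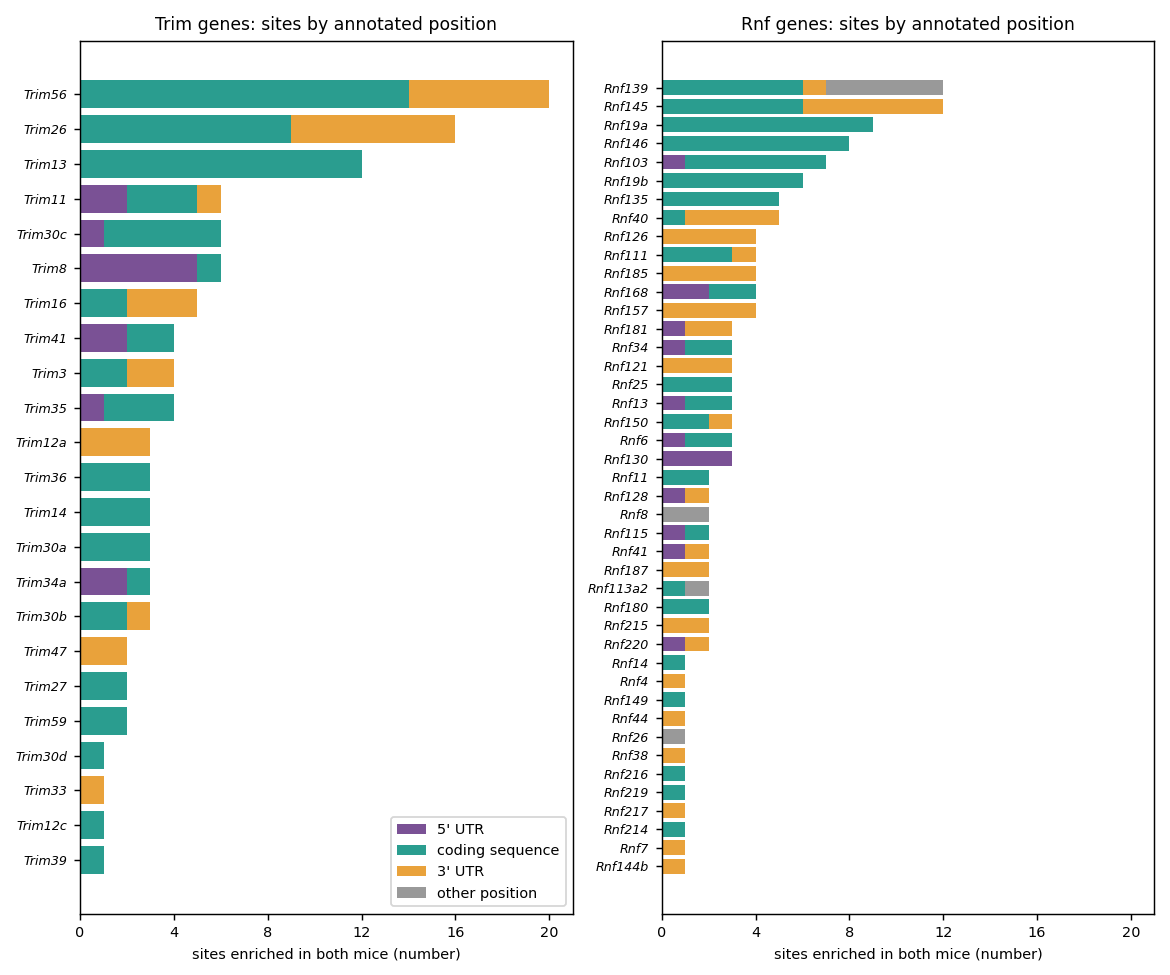
Number of sites enriched in both mice for each member that had one, coloured by the authors' annotated position. Trim56 leads with 20 sites, the 12 sites of Trim13 are all in coding sequence, and 5 of the 6 sites of Trim8 are in the 5' UTR.

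The Rnf genes of membranes included the Rnf genes with the most sites. Of the 20 on the list, 15 had called sites in both mice. A site enriched in both was carried by 14 of these (93.3%, against 86.9% of all genes). Rnf139, also known as TRC8, and Rnf145 encode ligases of the endoplasmic reticulum that take part in sterol regulation, and each carried 12 sites enriched in both mice. The strongest site of Rnf139, on chromosome 15 at 58900017, had folds of 217 and 75.8 while its scores were 87.4 and 87.6. It was annotated as an intron of a noncoding transcript, as were 5 of the 12 in all. Of these, the sites at 58898438 and 58898656 lay before the first called coding site, and the others lay among coding sites. The strongest site of Rnf145, in the 3' UTR on chromosome 11 at 44564311, had folds of 98.3 and 145. A tight group of coding sites preceded it. Mouse 2 was the higher at some of them, such as those at 44564051 (40.6 and 106) and 44564151 (51.1 and 117). Mouse 1 was the higher at 44564032 (43.1 and 13.2) and 44564058 (22.6 and 14.7).

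Other membrane ligases carried fewer sites. Rnf11, a small protein that works with the ubiquitin-editing enzyme A20, had 2 neighbouring coding sites enriched in both mice, with folds of 58.8 and 71.6 and of 23.4 and 73.2. Rnf103 carried 7, of which the strongest had folds of 42.1 and 42.4, nearly equal in the mice. Rnf130 had 3, all in the 5' UTR and 1 of them shown above (12.2 and 14.8). Rnf24 had none: its 1 site called in both mice had folds of 8.02 and 7.70, on either side of the limit. Divided by the constant that each table's folds carry (1.003 and 0.963) both values are 8, so Rnf24 passes in both mice when the limit is set before that constant.

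The Rnf genes of the RING-between-RING type encode ligases that pass ubiquitin through a catalytic cysteine of their own. Of the 8 on the list, 7 were called in both mice. A site enriched in both was carried by 6 of these (85.7%, against 86.9% of all genes). Of their 19 such sites, 17 lay in coding sequence and none in the 5' UTR. Most of the 19 belonged to Rnf19a and Rnf19b, and in these genes all were coding. Rnf14 and Rnf216 had 1 coding site each, and Rnf144b and Rnf217 had 1 each in the 3' UTR. The high coding share was thus mainly that of Rnf19a and Rnf19b. For comparison, the coding share was 42.4% when every gene was counted. Rnf19b, a ligase known from natural killer cells and macrophages, had 6 sites enriched in both mice. The strongest, on chromosome 4 at 129083931, had folds of 108 and 73.2. Rnf19a carried 9, the strongest with 59.2 and 67.4, and Rnf14 had its only called site in coding sequence with 72.2 and 57.8. The exception was Rnf31, which encodes HOIP, the catalytic subunit of the linear ubiquitin chain assembly complex of NF-kB signalling. Its 5' UTR site had folds of 10.03 and 7.70, and its 3' UTR site 3.51 and 4.33, so neither passed the limit in both mice. With the limit set before the constant of each table, the 5' UTR site passes (10 and 8), and all 7 genes then carry a site enriched in both. The share over all genes was not recomputed at that limit.

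The 8 Rnf genes of chromatin and DNA damage were all called in both mice. A site enriched in both was carried by 5 of them (62.5%, against 86.9% of all genes). The strongest belonged to Rnf4, a ligase that recognises SUMO-modified proteins, whose only called site, in the 3' UTR on chromosome 5 at 34351413, had folds of 84.2 and 44.1. Rnf40 carried 5 such sites, 4 of them in the 3' UTR, with a strongest site of 31.6 and 68.4. Its partner in monoubiquitination of histone H2B, Rnf20, had none: the site called in both mice had folds of 12.03 and 4.17. Rnf2, the catalytic RING1B of Polycomb complex PRC1, had 1 called site in mouse 1 and 4 in mouse 2, and none was enriched in either. Rnf169, a protein of double-strand break repair, had 2 enriched sites in mouse 1 (both 9.03) and 1 in mouse 2 (9.63), all at different bases. These 8 genes are too few to set against other lists, and no test was run.

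High values were also found in Rnf genes outside these lists. Rnf126, which ubiquitinates misplaced proteins together with BAG6, had its strongest site in the 3' UTR on chromosome 10 at 79758995. Its folds were 270 and 88.9, and only Trim13 had a higher mean. The 4 sites of Rnf126 enriched in both mice all lay in the 3' UTR, while its 5' UTR sites did not pass the limit in both mice. Rnf181 (77.2 and 74.1, 3' UTR) and Rnf34 (96.3 and 43.3, coding sequence) completed the 12 members with the highest folds. Rnf135, also known as Riplet, which activates RIG-I, had 5 sites enriched in both mice, all in coding sequence, the strongest with 69.2 and 53.4. Its site at the start of the gene changed sides of the limit, with folds of 10.03 and 3.13. Rnf146, a ligase that recognises poly-ADP-ribosylated proteins, carried 8, all in coding sequence. Rnf135 and Rnf146 were named after their values were seen.

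The other Rnf genes without a site enriched in both mice were Rnf114 and Rnf141. Rnf114 had 2 sites, both annotated as intronic, with folds of 6.62 and 22.1 and of 5.01 and 14.4, higher in mouse 2 at each. Rnf141 had 1 shared site with folds of 6.52 and 12.5, and 5' UTR sites of 9.03 and 16.05 in mouse 1 alone. By contrast, Rnf113a2, named after its values were seen, had 2 sites enriched in both mice, the stronger annotated as intronic (17.5 and 22.1). This gene is a retrocopy of Rnf113a1, and its coding site (18.1 and 17.3) may share reads with that gene. Rnf138 was called in mouse 2 alone (11.6) and Rnf227 in mouse 1 alone (8.02), with 1 site each.

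**Figure D3:**
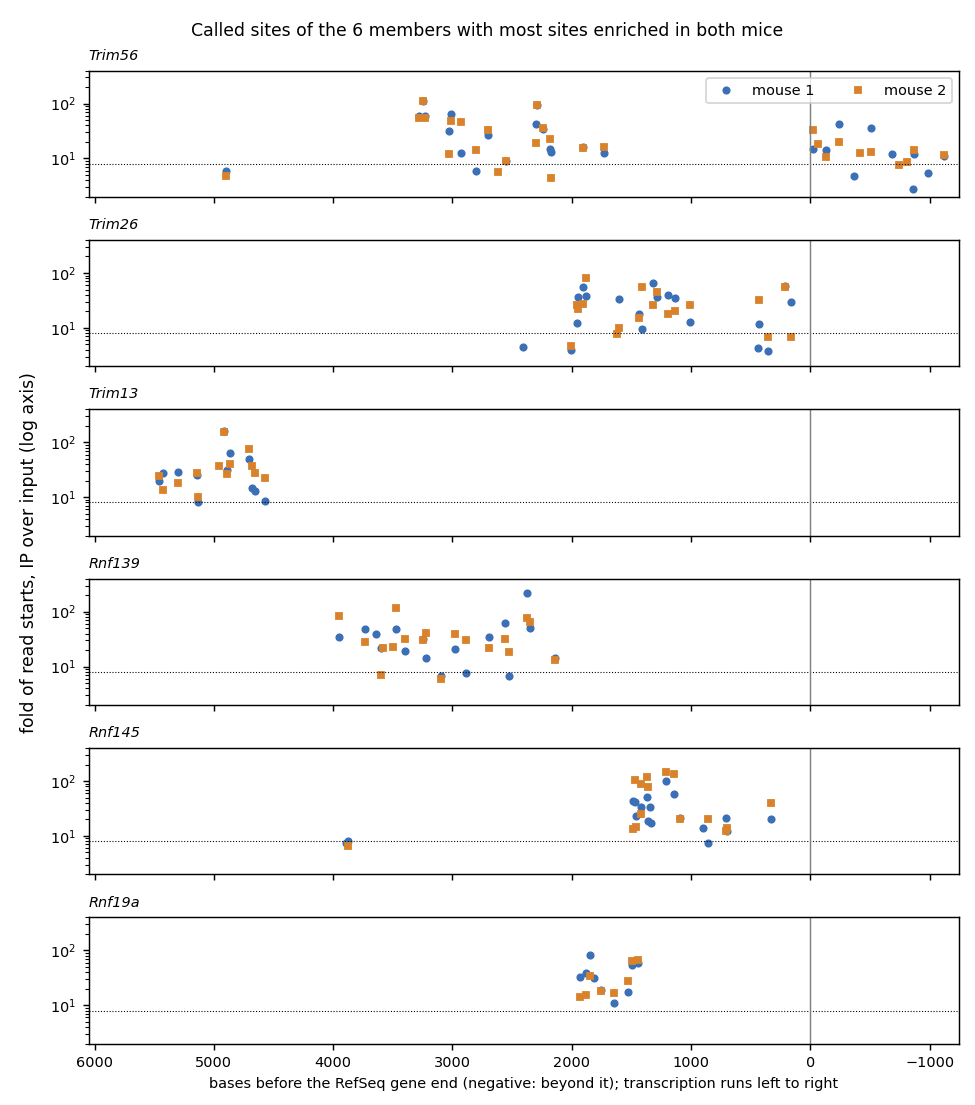
Fold of read starts, IP over input (log axis), of the called sites of the 6 members with the most sites enriched in both mice, against the distance in bases before the end of the RefSeq gene. Circles are mouse 1, squares mouse 2, and the dotted line is the limit of 8. The plot covers the last 6000 bases and shows all 32 called sites of Trim56, 20 of 23 of Trim26, 13 of 14 of Trim13, all 19 of Rnf139 and of Rnf145, and 9 of 15 of Rnf19a. The 3' UTR sites of Trim56 lie beyond the RefSeq end.

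By position, coding sequence held 146 of the 251 member sites enriched in both mice (58.2%, 51.8% to 64.3%), against 42.4% over all such sites. The 3' UTR held 69 (27.5%, 22.1% to 33.5%), against 37.3%, and the 5' UTR 27 (10.8%, 7.2% to 15.3%), against 13.6%. The coding share was 64.9% for Trim and 52.9% for Rnf genes. The intervals of the members' shares do not reach the share over all sites for coding sequence and the 3' UTR, but sites of 1 transcript are not independent and no test was run. The 6 members with the most sites, Trim56, Trim26, Trim13, Rnf139, Rnf145 and Rnf19a, held 81 of the 251 sites, 69.1% of them in coding sequence and none in the 5' UTR. In the remaining members 52.9% lay in coding sequence. When only the strongest site of each member was counted, the coding share fell to 43.9% and the 3' UTR share rose to 37.9%. The shares at the strongest site of each gene were not computed over all genes, so these values have no like background.

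Enrichment also differed by position within the members. Mouse 1 had 67 called 5' UTR sites, of which 41 passed the limit (61.2%), and mouse 2 had 63, of which 36 passed (57.1%). Of their coding sites, 85.1% and 86.9% were, with median folds of 18.1 in both mice. The 5' UTR sites had median folds of 9.03 and 10.6. All called sites showed the same order, with 64.7% and 61.9% of 5' UTR sites and 87.7% and 84.7% of coding sites enriched.

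**Figure D4:**
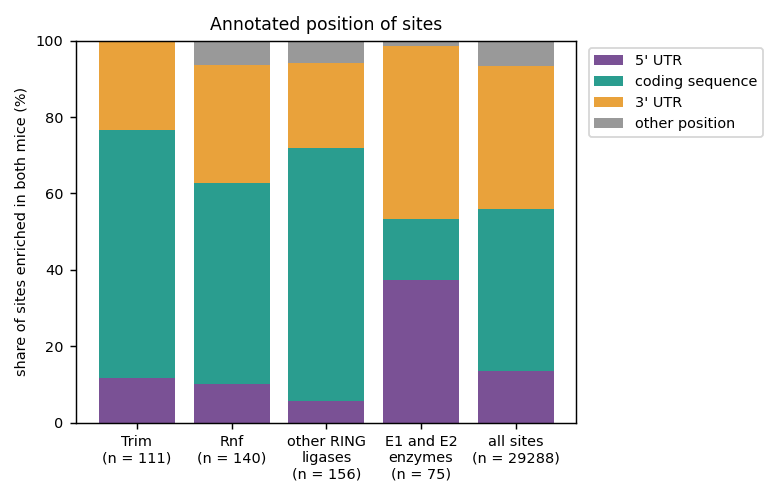
Share (%) of sites enriched in both mice by annotated position, for Trim genes, Rnf genes, RING ligases with other names, E1 and E2 enzymes and all sites, with the number of sites under each bar. Coding sequence takes 64.9% of the Trim sites and 52.9% of the Rnf sites, against 12 of the 75 sites of E1 and E2 enzymes.

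The E1 and E2 enzymes that load the ligases with ubiquitin gave another layout. Of the 35 on the list, 30 were called in both mice. A site enriched in both was carried by 25 of these (83.3%, against 86.9% of all genes). Of their 75 such sites, 28 lay in the 5' UTR (37.3%), 34 in the 3' UTR (45.3%) and 12 in coding sequence. Cdc34, the E2 of cullin ligases, had the highest fold (55.7 and 202), followed by Ube2z (128 and 50.1) and Ube2g2, an E2 of degradation from the endoplasmic reticulum (72.2 and 78.0). RING ligases with other names came close to the Trim and Rnf genes. Of 36 such genes called in both mice, 32 carried a site enriched in both (88.9%, against 86.9% of all genes). Coding sequence held 103 of their 156 sites enriched in both (66.0%). This list was led by Birc3, the inhibitor of apoptosis protein cIAP2 (75.6 and 258), Znrf1 (102 and 156) and Dtx3l, a partner of PARP9 (120 and 105). None of these differences between lists was tested.

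Sites of the members were spaced as follows. Of the 235 member sites enriched in both mice that had another in the same gene, 40.9% lay within 50 bases of it and 59.6% within 100 bases. The median distance to the nearest was 73 bases, 59 in Trim and 82.5 in Rnf genes. Over all genes it was 50 bases, with 50.1% within 50 bases. Members with close sites included Rnf40, whose 3' UTR sites at 127602651 and 127602660 had folds of 31.6 and 68.4 and of 40.1 and 21.2, so that the stronger of the pair differed between the mice.

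The 2 mice gave similar scores and less similar folds at the members' sites. Over the 251 sites enriched in both, the median absolute difference between the mice was 0.53 on the log2 scale for the fold and 0.23 for the score. Over all sites enriched in both, these were 0.49 and 0.18. The fold differed by more than 2-fold between the mice at 72 of the 251 sites (28.7%, against 22.4% over all sites). The score did so at 14 of the 251, against 2046 of all 29288 sites enriched in both. Across the 251 sites Pearson's r was 0.62 for log2 fold and 0.84 for log2 score (Spearman's rho 0.57 and 0.86), a description over sites that share their libraries, with no p. Over all sites enriched in both, r was 0.66 and 0.84 (rho 0.63 and 0.86).

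At the strongest sites of the 66 genes, the fold differed by more than 2-fold in 16 and the score in none, and mouse 2 was higher in 34 and mouse 1 in 32. Of these 66 folds, 51 in mouse 1 and 48 in mouse 2 were whole multiples of the constant of their table (77.3% and 72.7%). Over the member sites called in both mice the share was 64.2% in each mouse, and over all such sites 59.8% and 59.7%. The 66 were chosen for their high fold, and the share at the strongest sites of all genes was not computed. No read numbers were given, and the part of the input level in the order of folds was not tested. The 3 that differed most by fold were in Trim35, Rnf126 and Rnf130. The strongest shared site of Trim35, in the 5' UTR on chromosome 14, had folds of 44.1 and 10.8 and scores of 44.8 and 37.3. That of Rnf126 had folds of 270 and 88.9 and scores of 93.2 and 89.8. That of Rnf130 had folds of 8.82 and 26.0 and scores of 27.7 and 29.9. Among 50 members with at least 2 sites enriched in both, the base with the highest fold was the same in both mice in 27, and the base with the highest score in 38.

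**Figure D5:**
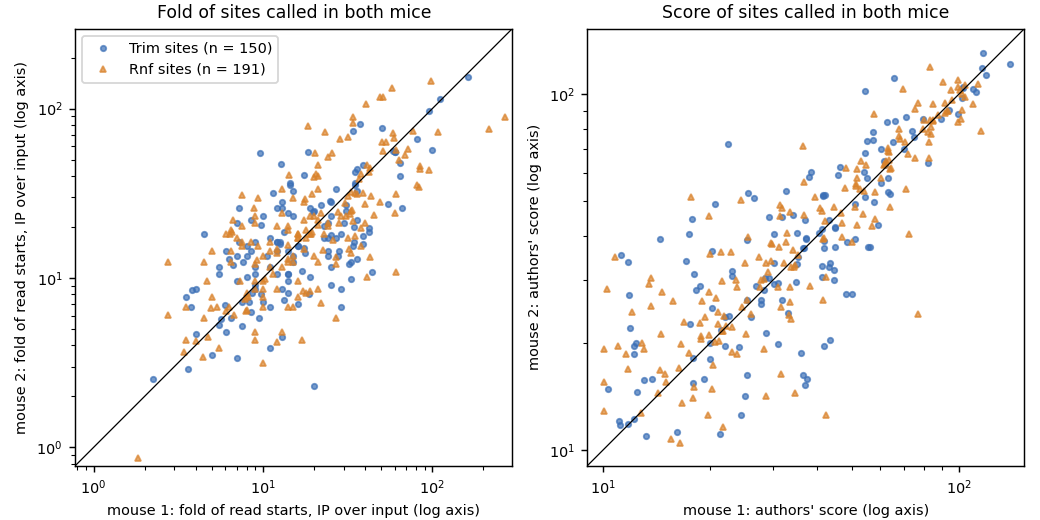
Fold (left) and authors' score (right) in mouse 1 against mouse 2, on log axes, for the 341 member sites called in both mice, 150 in Trim genes (circles) and 191 in Rnf genes (triangles). The line marks equal values. The score follows the line more closely than the fold, with r of 0.84 for log2 score and 0.70 for log2 fold over these sites.

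Of the members' called sites, 80.8% in mouse 1 and 80.2% in mouse 2 were called in both mice, against 83.4% and 79.8% of all called sites. Member sites called in 1 mouse only numbered 81 in mouse 1 and 84 in mouse 2. Their median scores were 15.9 and 16.9, against 35.1 and 37.3 for the member sites called in both. Of these sites 53 (65.4%) and 55 (65.5%) were enriched, against 66.2% and 59.5% of all sites called in 1 mouse only. Their median folds were 9.03 and 9.63, not far above the limit. Over all genes, sites called in 1 mouse had median scores of 15.1 and 16.1.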

How the data were processed

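The labels give 4 libraries, 1 IP and 1 input from each of 2 mice, and their protocols state a poly(A) selection of total RNA. Upstream, cutadapt 2.7, STAR 2.6.0c and UMI-tools 0.5.1 and the builds mm10 and hg38 were used, per the submitters' processing notes. No site caller, gene annotation or score definition is given in the sources used here. Per mouse, the authors deposited 1 table with, per the file headers, a score per site (every listed value above 10) and a fold, the ratio of read starts in IP over input. Divided by a constant of its table (1.003 and 0.963), 62.1% of the folds of mouse 1 and 62.0% of those of mouse 2 were whole numbers within 1e-06 (65.6% and 68.2% over member sites).

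From these tables sites were matched between mice by base and strand and counted per gene. Shared sites took gene and position from mouse 1. The position differed in mouse 2 at 13 member sites. The 6 sites whose cell joined a member's name with another were left out. Of 506 member sites, 96.0% lay inside the RefSeq gene, and all 79 members were found there, 1 of them by a synonym. No genome of the build was used, so sequence came from RefSeq promoter windows, which covered 60 members. The counts and overlap steps were run on random subsets of the sites of mouse 1, whose true overlap was known. These subsets have the same fold and labels at every common base, so folds or labels that differ between mice were not covered. No test was run: results are counts and shares, with both mice's folds printed. Alternatives were the fold limit, a score of at least 20, the constant, merging of near sites, joined names, the 3 genes left out, the overlap rule, 1 site per gene and each mouse left out. Members and lists were chosen with earlier results of these data known. Named were the 12 members with the highest mean log2 fold, the 6 with the most sites enriched in both mice, the leading 2 of each role list and 3 of each other list, the 7 with none enriched in both, the 6 called in 1 mouse, and the 3 that differed most. Others were named after their values were seen. Python 3.11.15, pandas 2.3.3, NumPy 2.4.6, SciPy 1.17.1 and Matplotlib 3.10.9 were used.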

Additional observations from a re-analysis of the deposited data

How the results depend on the processing

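Of the recomputed values 39 stayed within 1.5 times the count reported or within the interval of the share, and 7 moved further. At a log2 fold of at least 4, 195 member sites were enriched in mouse 1, 193 in mouse 2 and 135 in both, the coding share was 65.9% and the 5' UTR share 5.19%. With the strongest site of each gene alone, 43.9% were coding and 37.9% lay in the 3' UTR. A stricter limit counts fewer sites by construction, and the cause of the shifts in shares was not tested. Without replicate 1 (mouse 2 alone) 337 sites in 73 genes were enriched, and without replicate 2 331 sites in 73 genes, against 251 in 66 for both mice. With the limit set before the constant of each table, 255 sites in 68 genes passed, Rnf24 and Rnf31 being the 2 added. The counts over all sites and genes were not recomputed for that setting. No paired analysis was possible because the results are counts and shares that come from no test. Each deposited fold is itself a comparison of IP and input within a mouse. Depth per site is unknown, so no fold has an error of its own.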
